A study of Mus musculus with 17 samples.

Results

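The 39 genes described here encode Polycomb proteins, histone acetyltransferases and deacetylases, histone methyltransferases and demethylases, and nucleosome remodellers. They were chosen by name, 1 probe set per gene, from the 18193 genes that a probe set of the array names without ambiguity. Of a gene's probe sets, the 1 with the highest mean log2 value over the 17 arrays was used. All 39 were found, 1 of them through a synonym: Setd8 stands on the array under its current symbol, Kmt5a.

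The study profiled sorted progenitor fractions of adult mouse bone marrow on Affymetrix arrays, to describe how the myeloid and erythroid progenitors are ordered. The mice were 10 to 14 weeks old, and neither a genetic change nor a treatment is given for any fraction. CLP (common lymphoid progenitors, 3 arrays) were Lin-Sca1lowKitlowIL7r+Flk2+. The other 4 fractions were Lin-Sca1-Kit+. Of these, preGM (granulocyte-macrophage precursors, 3 arrays) were Itga2b-FcgRlow and Slamf1-Englow. The preMegE fraction (common precursors of megakaryocytes and erythroid cells, 5 arrays) was Itga2b-FcgRlow and Slamf1+Englow. MkP (megakaryocyte progenitors, 3 arrays) were Itga2b+Slamf1+. The preCFUE fraction (early erythroid progenitors, 3 arrays) was Itga2b-FcgRlow and Slamf1+Enghigh. Nothing in the labels tells if replicate arrays stem from different mice or different sorts, and the p-values then measure only how far these arrays spread, which may be technical. In sorted bulk samples of this kind, fewer cells of a type and less RNA per cell cannot be told apart.

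Polycomb repressive complex 2 (PRC2) methylates a lysine of histone H3 at silent genes, and Polycomb repressive complex 1 (PRC1) ubiquitinates histone H2A there and compacts chromatin. Acetyltransferases and deacetylases add and remove acetyl groups on histones and other proteins, methyltransferases and demethylases do the same with methyl groups, and remodellers use ATP to move or evict nucleosomes. Several of these enzymes are partners of the transcription factors that set blood lineages, among them Gata1 for the acetyltransferase Crebbp and Mef2 factors for the class IIa deacetylases.

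Each value is a probe set's intensity after the authors' RMA summary, in arbitrary units, and differences are on the log2(intensity + 16) scale, which understates changes of dim genes. The array medians lay between 15.96 and 19.1 and the 75th percentiles between 50.6 and 74.4. The 3-prime over 5-prime log2 ratio of the Gapdh control probe sets, a sign of RNA quality after the amplification, ranged from 2.72 to 5.12. The 4 markers fixed for each of CLP (Il7r, Flt3, Dntt and Rag1), preGM, MkP and preCFUE had their highest summed intensity in the fraction they name. Summed neutrophil markers ranged from 87.0 to 1526 among the preMegE arrays and from 108 to 1354 among the MkP arrays, and their part in the results was not tested. CLP replicate 2 was the only array closer to another fraction (mean correlation 0.961 with preGM) than to its own (0.949). Its summed CLP markers, 17022, were above those of CLP replicates 1 and 3 (11860 and 9547), and its preGM markers, 1259, were below theirs (1314 and 1334).

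Over the 5 fractions, 20 of the 39 genes differed (limma's moderated F test, Benjamini-Hochberg adjusted p under 0.05), against a background of 34.9% of all genes. Most of the 39 were well expressed: their median level lay at the 85.02 percentile. In a fit of the 10916 better expressed genes (mean level above the 40th percentile), 57.7% differed, and 23 of the 38 members among them, so the share of members lies near the background of genes of like level. Without CLP replicate 2, 27 of the 39 differed, against 42.9% of all genes. By role, the test was passed by 6 of 7 demethylases, 5 of 8 deacetylases, 3 of 3 methyltransferases, 2 of 4 acetyltransferases, 2 of 6 PRC1 genes, 1 of 4 PRC2 genes and 1 of 7 remodellers. Some of these calls depended on the processing or on single arrays. That of Prmt1 (adjusted p = 0.0485) was lost under 16 of 28 alternatives, of Ring1 under 7 of 27 and of Kdm4a under 8 of 27. Losses for Kdm5a, Kdm6b and Smarcb1 are given below. Of the 20 genes, 10 had their lowest mean in MkP, 7 their highest in preCFUE and 6 their highest in preMegE. The same counts were not made over all genes, so these are not traits of the 39. Among all genes, too, more were lower than higher in MkP, against preMegE (6.37% and 3.98%) and against preCFUE (10.7% and 5.51%). The means of the highest and lowest fraction stood 1.31-fold to 4.62-fold apart among the 20, and 1.13-fold to 2.20-fold among the other 19.

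**Figure D1:**
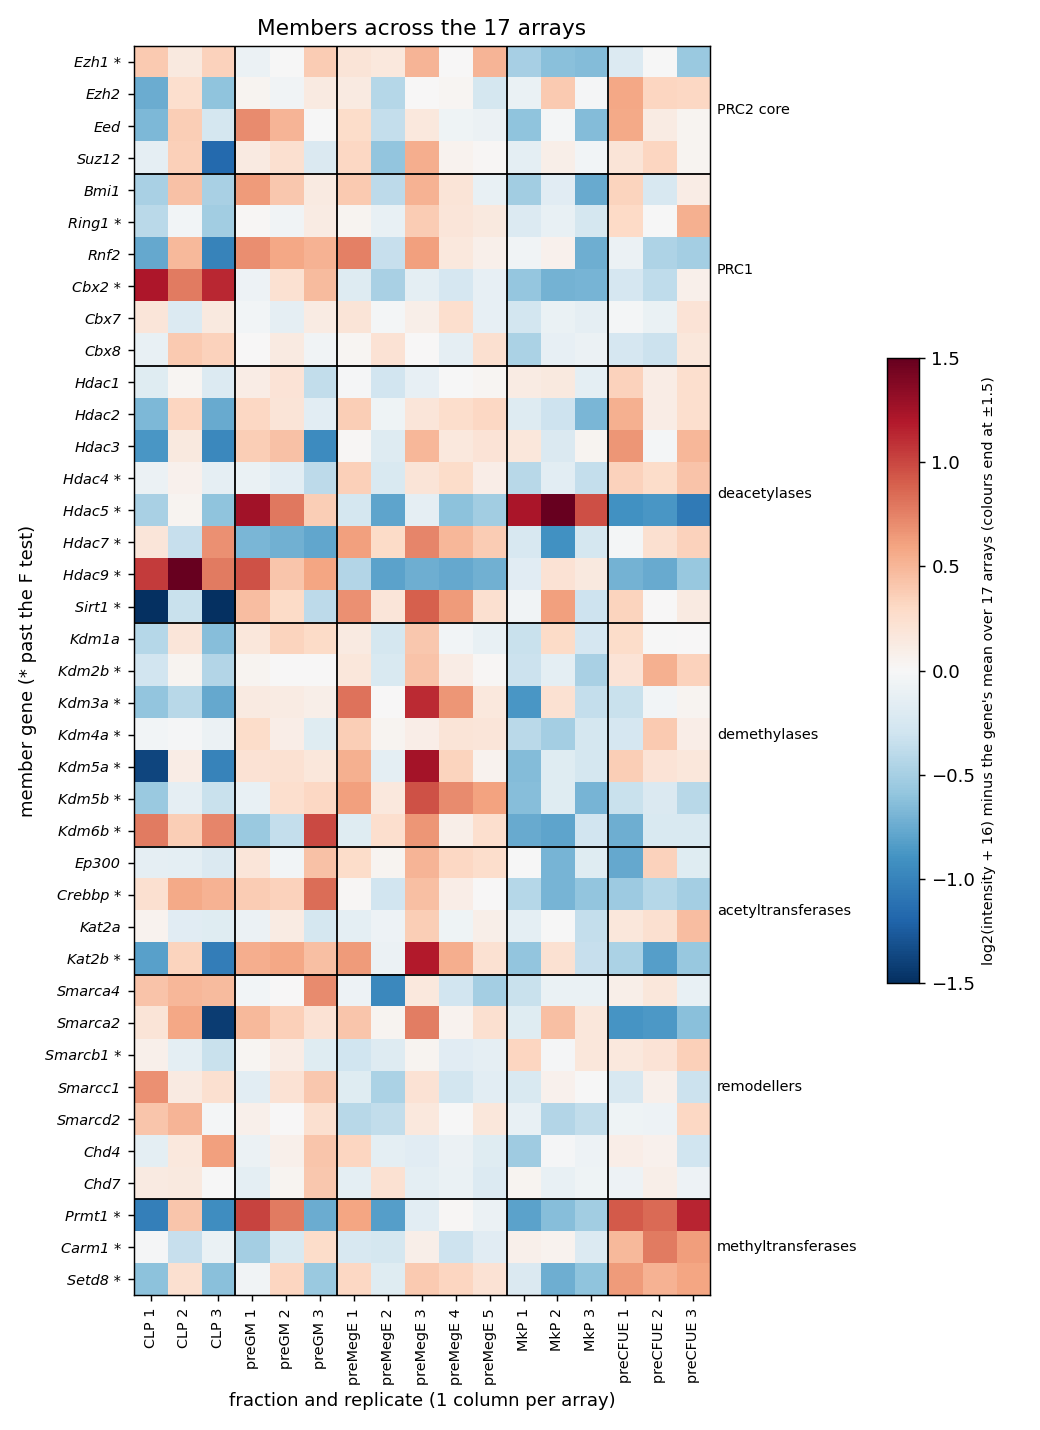
Log2(intensity + 16) of the 39 genes on each of the 17 arrays, shown as the difference from the gene's own mean over the arrays, with genes grouped by role and arrays by fraction. Hdac5 stands out in MkP and preGM, and many genes are low on CLP replicates 1 and 3 but not on CLP replicate 2.

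Between preMegE and preGM, 3 of the 39 genes changed, against 8.69% of all genes, and all were class IIa deacetylases: Hdac7 was higher in preMegE, and Hdac5 and Hdac9 were lower. Of all genes, 2.81% were higher and 5.88% lower. The median difference of the 39 was -0.03, beside 0.01 for all genes. Here and below, the median of all genes takes in 6025 dim genes with a mean under 16, so it is no background of like level. In the fit of better expressed genes 3 members changed, against 13.9%. Without preMegE replicate 2, 5 genes changed. Quantile normalization gave 3 higher and 2 lower, where the deposited scaling gave 1 and 2.

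Between MkP and preMegE, 9 genes changed, against 10.3% of all genes. Hdac5 and Hdac9 were higher in MkP, and Ezh1, Crebbp, Hdac4, Hdac7, Kdm3a, Kdm4a and Kdm5b were lower. The median of the 39 was -0.41, beside 0.01 for all genes and -0.25 for 110 other chromatin genes (described below). Of all genes, 3.98% were higher and 6.37% lower, and in the fit of better expressed genes 10 of 38 members changed, against 18.1%. With quantile normalization the split turned to 4 higher and 2 lower, so no direction of the 39 genes as a group holds under both scalings.

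Between preCFUE and preMegE, 6 genes changed, against 8.69% of all genes. Carm1 and Smarcb1 were higher in preCFUE, and Ezh1, Crebbp, Kat2b and Kdm5b were lower. Of all genes, 4.75% were higher and 3.94% lower. The median of the 39 was 0.02, beside 0.01 for all genes. In the fit of better expressed genes 6 members changed, against 16.4%. The count of 6 fell to 2 without preMegE replicate 1, preCFUE replicate 1 or preCFUE replicate 3, and to 3 without preMegE replicate 4 or 5. Quantile normalization gave 1 higher and 5 lower, and centring on the median 2 and 2. Both this comparison and that of MkP use the same 5 preMegE arrays.

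Between MkP and preCFUE, the progenitor fractions of the megakaryocytic and erythroid branches, 10 genes changed, against 16.2% of all genes. Hdac5 and Hdac9 were higher in MkP, and Ring1, Kat2a, Hdac4, Kdm2b, Kdm4a, Carm1, Prmt1 and Setd8 were lower. Of all genes, 5.51% were higher and 10.7% lower. The median of the 39 was -0.22, beside 0.01 for all genes and -0.12 for the 110 other chromatin genes. In the fit of better expressed genes 11 members changed, against 28.1%, so the members' share was near that background. The count fell to 5 without MkP replicate 3 or preCFUE replicate 3, and to 6 without MkP replicate 1. Quantile normalization gave 3 higher and 3 lower.

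Between CLP and preGM, 5 genes changed, against 18.3% of all genes. Cbx2 and Hdac7 were higher in CLP, and Hdac5, Kat2b and Sirt1 were lower. Of all genes, 5.07% were higher and 13.3% lower. The median of the 39 was -0.24, beside 0.01 for all genes and -0.23 for the 110 other chromatin genes. In the fit of better expressed genes 7 members changed, against 30.8%. Leaving out CLP replicate 2 raised the count to 15, with 2 higher and 13 lower, against 33.2% of all genes. It was 3 without CLP replicate 1, CLP replicate 3 or preGM replicate 1, and 2 without preGM replicate 2. In a fit of only the CLP and preGM arrays 1 gene passed, Kdm3a (-0.71 ± 0.11, adjusted p = 0.0361), and none of the 5 above passed. Quantile normalization gave 4 higher and 2 lower.

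**Figure D2:**
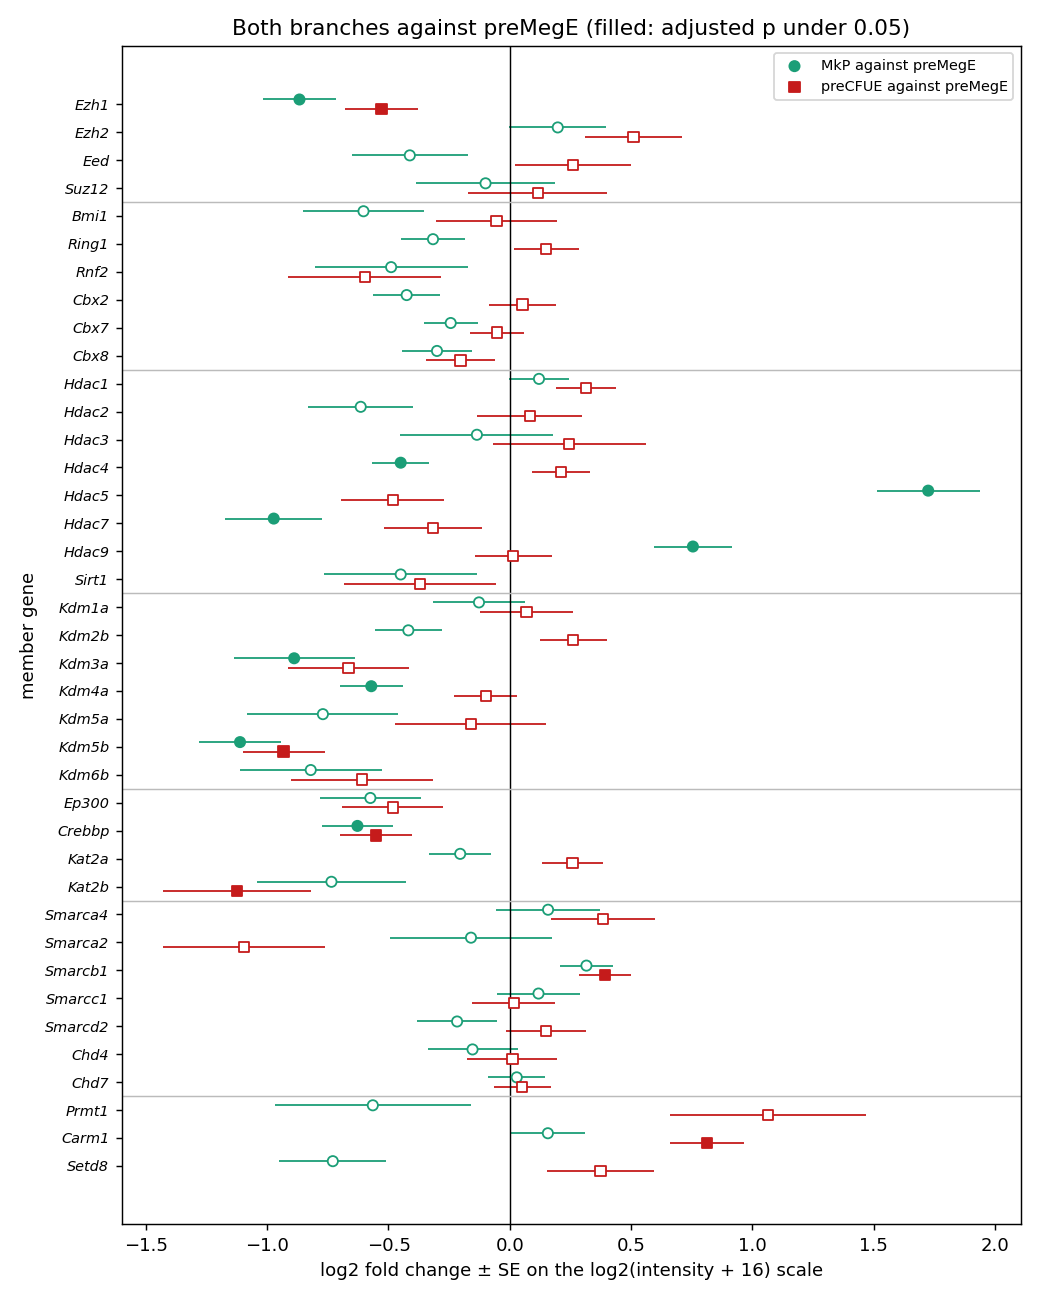
Log2 difference of each of the 39 genes from preMegE in MkP and in preCFUE, with standard errors from limma and filled points for adjusted p under 0.05. Kdm5b, Crebbp and Ezh1 lie below 0 in both branches, and Hdac5 lies at 1.72 in MkP and at -0.48 in preCFUE.

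Hdac5, a class IIa deacetylase that shuttles between nucleus and cytoplasm and represses Mef2 targets, had the widest range of fraction means of the 39 on the log2(intensity + 16) scale. Its intensity was 191, 249.9 and 156 in MkP, 196, 137 and 97.7 in preGM, and 47.0, 74.8 and 42.0 in CLP (here and in what follows, values stand in the order of the replicate numbers). In preMegE it was 57.5, 35.1, 64.3, 41.3 and 45.6, and in preCFUE 31.0, 32.2 and 26.3. Every MkP and preGM array thus lay above every CLP, preMegE and preCFUE array, while the MkP and preGM values overlapped. The log2 difference was 1.72 ± 0.21 (SE) for MkP against preMegE (adjusted p = 8.45e-05) and 2.21 ± 0.24 for MkP against preCFUE (adjusted p = 1.59e-05). It was -1.27 ± 0.21 for preMegE against preGM (adjusted p = 0.000916). The step from preMegE to preCFUE, -0.48 ± 0.21, did not pass (adjusted p = 0.231), although the arrays did not overlap. Against preGM, CLP was lower by a log2 difference of -1.16 ± 0.24 (adjusted p = 0.00573), which did not pass in a fit of only the CLP and preGM arrays (adjusted p = 0.103). With 64 as the added constant, MkP against preCFUE was 1.47 and still passed.

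The Hdac5 promoter is shown because Hdac5 had that range. The 250 bases before its start lie at chr11:102230173-102230422 on the minus strand of GRCm38.p6 (RefSeq), and hold 60.8% G and C, where the median of 32851 mouse promoter windows of this length is 52.4%. Capitals mark matches, on both strands, to 4 sets of letters: AGATAA (bound by GATA factors), CCGGAAG (ETS factors), CCAAT (NF-Y) and GGGCGG (Sp factors). No match to 1 set overlaps a match to another in the windows shown. The genes and letters were chosen after their values were seen.
Hdac5: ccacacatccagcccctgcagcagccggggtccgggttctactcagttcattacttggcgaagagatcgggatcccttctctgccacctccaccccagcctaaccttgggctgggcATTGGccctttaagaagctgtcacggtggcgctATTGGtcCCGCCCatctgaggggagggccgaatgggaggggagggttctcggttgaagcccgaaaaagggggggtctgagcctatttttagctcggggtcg
The window holds CCAAT on the reverse strand at 134 and 101 bases before the start, and GGGCGG on the reverse strand at 94. Of all windows, 33.8% hold CCAAT and 32.7% hold GGGCGG, while 9.99% hold AGATAA and 6.91% hold CCGGAAG, neither of which is in this window.

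Hdac9, the class IIa deacetylase closest to Hdac5 in kind, was low throughout the megakaryocyte and erythroid fractions. Its intensity was 65.2, 97.4 and 51.6 in CLP and 60.5, 36.5 and 43.4 in preGM. It was 18.9, 29.8 and 27.6 in MkP, 12.9, 6.64, 7.74, 7.11 and 7.90 in preMegE, and 8.08, 7.35 and 10.5 in preCFUE. CLP and preGM overlapped, MkP stood between them and the remaining fractions, and preMegE and preCFUE were below 16, near the dim end of the array. The difference was -1.35 ± 0.16 for preMegE against preGM (adjusted p = 4e-05), 0.75 ± 0.16 for MkP against preMegE (adjusted p = 0.00688) and 0.74 ± 0.18 for MkP against preCFUE (adjusted p = 0.0112). With 64 in place of 16 as the added constant, the first was -0.61 and passed, and the last 2 were both 0.30 and did not pass (adjusted p = 0.0543 and 0.0668). With 1 as the constant they were -2.34, 1.49 and 1.44, and with the mean over the probe sets of the gene -0.72, 0.48 and 0.44, all past the test.

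Hdac7, also of class IIa and known for its high level in developing thymocytes, ran opposite to Hdac5 in several fractions. Its intensity was 269, 210.3, 292, 247 and 225 in preMegE, against 99.4, 96.2 and 91.9 in preGM. It was 141, 83.3 and 139 in MkP, 166, 204 and 220.0 in preCFUE, and 194, 130.4 and 282 in CLP. All preMegE arrays lay above all preGM and all MkP arrays. The difference was 1.24 ± 0.20 for preMegE against preGM (adjusted p = 0.000748), -0.97 ± 0.20 for MkP against preMegE (adjusted p = 0.00597) and 0.90 ± 0.22 for CLP against preGM (adjusted p = 0.0157). Quantile normalization ended the call in MkP (adjusted p = 0.128). The call in CLP was lost without CLP replicate 3 (0.65, adjusted p = 0.0728) or preGM replicate 2 (0.91, adjusted p = 0.051), with the 3-prime over 5-prime ratio in the model (0.79, adjusted p = 0.0519), and when only the CLP and preGM arrays were fitted (adjusted p = 0.134). Quantile normalization raised it to 1.39. The mean over probe sets gave 0.70, -0.58 and 0.44 for the 3 differences, all past the test.

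Hdac4, the remaining class IIa member, was 61.5, 57.6 and 66.2 in preCFUE, 29.6, 38.7 and 31.6 in MkP, and 61.8, 36.1, 53.6, 58.0 and 49.1 in preMegE. The MkP arrays lay below all preCFUE arrays but overlapped with preMegE. MkP was lower than preCFUE by a difference of -0.66 ± 0.13 (adjusted p = 0.00341), and lower than preMegE by -0.45 ± 0.12 (adjusted p = 0.0249). The latter call was lost without MkP replicate 1 or 3 or preMegE replicate 1, 3 or 4 (-0.44 to -0.40, adjusted p = 0.0519 to 0.114), when its probe sets were averaged (-0.31, adjusted p = 0.0717), and when only the MkP and preMegE arrays were fitted (adjusted p = 0.062). The mean over probe sets gave -0.43 against preCFUE. With 64 as the constant both calls held, at -0.25 against preMegE and -0.37 against preCFUE. Hdac4 and Hdac5 thus lay on opposite sides of preMegE in MkP.

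Sirt1, an NAD-dependent deacetylase, was lower in CLP than in preGM, at 53.5, 148 and 42.9 against 269, 236 and 142. CLP replicate 2 overlapped with preGM replicate 3. The difference was -1.36 ± 0.35 (adjusted p = 0.0189), and -1.81 without CLP replicate 2 (adjusted p = 0.000754). It did not pass without CLP replicate 1 or 3 or preGM replicate 1 or 2 (-1.28 to -1.08, adjusted p = 0.0704 to 0.0912), or in a fit of only the CLP and preGM arrays (adjusted p = 0.165). The class I deacetylases Hdac1, Hdac2 and Hdac3, which form the cores of the Sin3, NuRD, CoREST and NCoR complexes, passed no test in the main fit. With array weights, each of them passed the test over the 5 fractions, as did 32 of the 39 members and 53.6% of all genes. Hdac1 also passed it under quantile normalization. Hdac2 (adjusted p = 0.0588 in the main fit) also passed it under median centring, among better expressed genes and with the mean over probe sets. Hdac1 lay between 286 and 479 on all arrays. Hdac2 was 576, 529 and 405 in MkP and 635 to 862 in preMegE, a difference of -0.61 ± 0.22 with no overlap (adjusted p = 0.0894). In fits of only the arrays compared, Hdac2 was lower in MkP than in preMegE (adjusted p = 0.0207) and than in preCFUE (adjusted p = 0.0333).

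**Figure D3:**
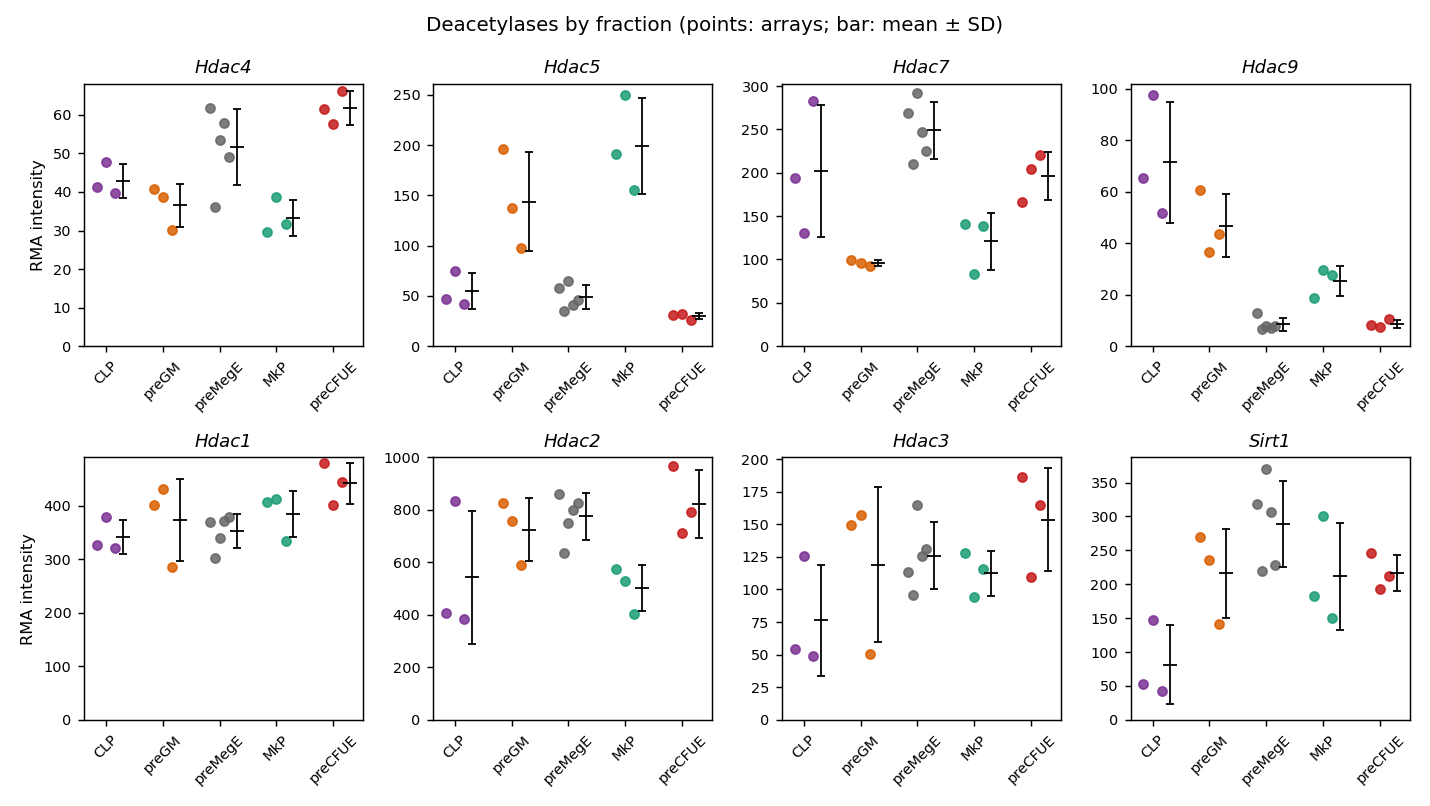
RMA intensity (linear axis from 0) of the 8 deacetylase genes, 1 point per array, by fraction, with the fraction mean ± SD as a black mark (n = 3, and 5 for preMegE). Hdac5 and Hdac9 fall between preGM and preMegE and are higher again in MkP, while Hdac7 takes its highest values in preMegE.

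Of the PRC2 core, the catalytic subunit Ezh1 differed between fractions and its paralogue Ezh2 did not pass in the main fit. Ezh1 intensity was 194, 189, 245, 168 and 246 in preMegE, 114, 103 and 101 in MkP, and 144, 167 and 109 in preCFUE. It was 224, 187 and 218 in CLP and 157, 166 and 224 in preGM. All MkP and preCFUE arrays lay below all preMegE arrays. The difference was -0.87 ± 0.15 for MkP (adjusted p = 0.00154) and -0.53 ± 0.15 for preCFUE (adjusted p = 0.04), both against preMegE. Quantile normalization gave -0.61 for MkP (adjusted p = 0.0831). The mean over the Ezh1 probe sets gave -0.24 for MkP, which passed (adjusted p = 0.0293), and -0.10 for preCFUE, which did not (adjusted p = 0.513). The preCFUE call was lost under 15 of 28 alternatives (other scalings, constants, filters, probe sets and models, and each array left out), among them leaving out preCFUE replicate 3 (-0.38, adjusted p = 0.239), and 9 other single arrays (-0.56 to -0.47, adjusted p = 0.0502 to 0.0982). Quantile normalization (adjusted p = 0.116), median centring (0.0709) and a fit of only the arrays compared (0.0763) ended it too.

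Ezh2, the subunit typical of dividing cells, was 1584, 1319.6 and 1311 in preCFUE, 982, 1389 and 1040.2 in MkP, and 1156, 776, 1054, 1078 and 876 in preMegE. All preCFUE arrays lay above all preMegE arrays, but the difference of 0.51 ± 0.20 did not pass (adjusted p = 0.158). The test over the 5 fractions missed the threshold for Ezh2 (adjusted p = 0.0972). It passed without CLP replicate 2, with array weights (where 53.6% of all genes passed) and with the 3-prime over 5-prime ratio in the model (lowest adjusted p = 0.0027). Summed intensity of 13 G2 and M phase genes was 8178 to 10071 in preCFUE, 7447 to 10572 in MkP and 3200 to 5319 in preMegE, and its part in the levels was not tested. Eed and Suz12, which hold the complex together, did not pass in any comparison with all arrays. Eed was 366, 767 and 489.9 in CLP, 979, 853 and 588 in preGM and 383, 579 and 373 in MkP. Without CLP replicate 2, CLP was lower than preGM in Eed by -0.87 ± 0.26 (adjusted p = 0.0199), and the test over the 5 fractions passed as well (adjusted p = 0.0259), as it did with the 3-prime over 5-prime ratio in the model (0.00973) and with array weights (0.00209). Its arrays overlapped between CLP and preGM, and Suz12 lay between 304 and 1029 on the 17 arrays.

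Among the PRC1 genes, Cbx2, a chromodomain subunit, was highest in CLP. It was 219, 158 and 205 in CLP, 80.2, 103 and 125 in preGM, 72.7, 56.2, 75.9, 68.9 and 77.2 in preMegE, 51.6, 46.0 and 46.4 in MkP, and 69.0, 61.7 and 91.0 in preCFUE. Every CLP array lay above every array of the other 4 fractions, and every MkP array below. The difference was 0.83 ± 0.16 for CLP against preGM (adjusted p = 0.00329), and it did not pass in a fit of only those arrays (adjusted p = 0.0885). Quantile normalization gave 1.30 and the mean over probe sets 0.46, both past the test. The 3 other comparisons in which Cbx2 arrays did not overlap missed the threshold: preMegE against preGM (-0.45, adjusted p = 0.0665), MkP against preMegE (-0.43, adjusted p = 0.0698) and MkP against preCFUE (-0.48, adjusted p = 0.0511). Of these, MkP against preMegE passed in a fit of only the arrays compared (adjusted p = 0.0214).

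The ubiquitin ligase Ring1 was 64.2, 69.5 and 61.2 in MkP and 97.8, 76.0 and 117 in preCFUE. MkP lay below with no overlap, by -0.47 ± 0.15 (adjusted p = 0.0475), a call lost under 18 of 28 alternatives, 12 of which left out a single array (-0.51 to -0.34, adjusted p = 0.0504 to 0.202, the highest without preCFUE replicate 3). Quantile normalization gave -0.27 (adjusted p = 0.139). With 1 as the constant, with the better expressed genes, with only the arrays compared or with the 3-prime over 5-prime ratio in the model, the adjusted p was 0.0532 to 0.0702. Its paralogue Rnf2 was 206, 514 and 173 in CLP and 595, 546 and 526 in preGM. The CLP arrays all lay lower (-1.02 ± 0.35), which missed the threshold (adjusted p = 0.0573) and passed without CLP replicate 2 (-1.48, adjusted p = 0.00247). Bmi1, needed for stem cell self-renewal, was 366, 711 and 365 in CLP and 818, 694 and 572 in preGM. It did not pass (-0.57 ± 0.28, adjusted p = 0.156), but passed without CLP replicate 2 (-0.88, adjusted p = 0.02). Cbx7 lay between 15.6 and 29.5 and Cbx8 between 12.8 and 36.7, near the dim end, and neither passed a test.

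Kdm5b, which removes methyl groups from the histone H3 lysine that marks active promoters, was highest in preMegE. It was 345, 246, 439.9, 369 and 343 there, 135, 192 and 129.8 in MkP, and 170.2, 187 and 160.1 in preCFUE. It was 203, 265 and 277 in preGM and 144, 199 and 171 in CLP. Both branch fractions lay below all preMegE arrays, and preGM overlapped with preMegE. The difference from preMegE was -1.11 ± 0.17 in MkP (adjusted p = 0.00057) and -0.93 ± 0.17 in preCFUE (adjusted p = 0.00254), and both calls held in all 28 alternatives, at their smallest with the mean over probe sets (-0.71 and -0.51). A dimmer Kdm5b probe set gave -1.30 and -0.69 in the same comparisons.

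Crebbp, the acetyltransferase CBP and a partner of Gata1, was lower than preMegE in both branches as well. It was 531, 428, 724, 566 and 529 in preMegE, 388, 318 and 345 in MkP and 356, 386 and 366 in preCFUE, with no overlap. CLP and preGM were higher, at 626, 786 and 762 and at 687, 671 and 950.3. The difference was -0.63 ± 0.15 in MkP (adjusted p = 0.0137) and -0.55 ± 0.15 in preCFUE (adjusted p = 0.0312). The MkP call was lost under quantile normalization (-0.33, adjusted p = 0.262), when its probe sets were averaged (-0.30, adjusted p = 0.32) and without MkP replicate 2 or 3 (adjusted p = 0.058 and 0.0546). The preCFUE call was lost without preMegE replicate 1, 4 or 5 or any 1 preCFUE array (-0.58 to -0.52, adjusted p = 0.0517 to 0.12), and under median centring (-0.51, adjusted p = 0.0643). Its paralogue Ep300 went the same way in value, 392, 238 and 347 in MkP against 406 to 569 in preMegE, without passing (-0.57 ± 0.21, adjusted p = 0.0984).

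The promoters of Kdm5b, Ezh1 and Crebbp are shown because these were the 3 genes called lower than preMegE in both branches, comparisons that share the preMegE arrays. The windows of 250 bases before the start are chr1:134559928-134560177 (plus strand), chr11:101226464-101226713 (minus) and chr16:4213405-4213654 (minus), GRCm38.p6, with the same marking as for Hdac5.
Kdm5b: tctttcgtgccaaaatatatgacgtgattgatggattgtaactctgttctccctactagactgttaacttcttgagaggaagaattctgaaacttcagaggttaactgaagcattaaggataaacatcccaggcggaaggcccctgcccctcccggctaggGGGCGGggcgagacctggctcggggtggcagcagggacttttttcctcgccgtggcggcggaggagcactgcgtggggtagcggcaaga
Ezh1: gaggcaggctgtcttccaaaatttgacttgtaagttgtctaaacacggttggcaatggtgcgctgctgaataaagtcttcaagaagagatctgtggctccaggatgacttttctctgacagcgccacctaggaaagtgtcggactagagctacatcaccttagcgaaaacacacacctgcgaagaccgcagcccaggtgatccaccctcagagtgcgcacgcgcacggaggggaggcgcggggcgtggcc
Crebbp: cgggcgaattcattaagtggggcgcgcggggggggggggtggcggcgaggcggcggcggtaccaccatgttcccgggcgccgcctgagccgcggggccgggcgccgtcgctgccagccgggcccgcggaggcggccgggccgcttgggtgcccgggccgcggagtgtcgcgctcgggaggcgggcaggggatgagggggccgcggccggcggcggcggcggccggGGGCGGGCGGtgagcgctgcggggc
Kdm5b holds GGGCGG once, 89 bases before the start, and Crebbp holds 2 overlapping copies at 25 and 21. The Ezh1 window holds none of the 4 sets, and the letters of the GATA, ETS and NF-Y sets are in none of the 3 windows. Crebbp holds 84.0% G and C, above the 90th percentile of all windows (69.2%), Ezh1 55.2% and Kdm5b 54.4%. Of the 39 genes, 32 had a promoter in the RefSeq table, 25 of them with a single window.

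The other demethylases also took their lowest means in MkP or CLP. Kdm3a, which acts on histone H3 lysine methylation linked to silencing, was 660.1, 372, 818, 595 and 415 in preMegE and 194, 435 and 284 in MkP. The groups overlapped, and the difference of -0.89 ± 0.25 passed (adjusted p = 0.0352). It was lost without MkP replicate 1 or 3 or preMegE replicate 1, 3 or 4 (-0.88 to -0.62, adjusted p = 0.0724 to 0.189), under quantile normalization (-0.59, adjusted p = 0.0697) and when only the MkP and preMegE arrays were fitted (adjusted p = 0.0994). Kdm4a, another histone H3 demethylase, was 50.5, 45.7 and 57.2 in MkP, below every array of preMegE (74.5 to 97.7) and of preCFUE (58.1, 99.3 and 77.8). The differences were -0.57 ± 0.13 (adjusted p = 0.0113) and -0.47 ± 0.15 (adjusted p = 0.0399). The first was lost without MkP replicate 2 (adjusted p = 0.0511) and under quantile normalization (-0.44, adjusted p = 0.0667). It held at -0.25 with the mean over probe sets and at -0.36 with 64 as the constant. The second was lost without any 1 MkP array, preCFUE replicate 2 or 3, preGM replicate 2 or preMegE replicate 4 or 5 (adjusted p = 0.0524 to 0.16). It was lost as well under quantile normalization (-0.35, adjusted p = 0.18), when its probe sets were averaged (-0.17, adjusted p = 0.154), with only the arrays compared (0.109) and with the 3-prime over 5-prime ratio in the model (0.0521), and held at -0.30 with 64 as the constant.

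Kdm2b, which brings PRC1 to CpG islands, was 661, 747 and 589 in MkP and 958, 1212 and 1058 in preCFUE, a difference of -0.68 ± 0.15 with no overlap (adjusted p = 0.00818). Quantile normalization reduced it to -0.27 (adjusted p = 0.082). Kdm5a, a paralogue of Kdm5b, and Kdm6b, which removes the mark that PRC2 sets, passed the test over the 5 fractions (adjusted p = 0.0468 and 0.0411). Neither passed a single comparison in the main fit. In fits of only the arrays compared, MkP was lower than preCFUE in Kdm5a (adjusted p = 0.0296) and lower than preMegE in Kdm6b (adjusted p = 0.0258). Kdm5a was 46.1, 158 and 64.4 in CLP against 171, 173 and 165 in preGM, with CLP replicate 2 near the preGM arrays. Kdm6b was 149.6, 174 and 466 in preGM, so 1 preGM array stood with CLP (401, 297 and 388). The F test calls of Kdm5a and Kdm6b were lost under 18 and 12 of 27 alternatives, including the removal of CLP replicate 1 (adjusted p = 0.14 and 0.0993) or 3 (0.139 and 0.096). Kdm1a, the CoREST demethylase that works with Gfi1 and Gfi1b, did not pass in the main fit, at 286 to 605 on the 17 arrays.

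Kat2b, an acetyltransferase of the SAGA type also known as PCAF, was 172, 131 and 159 in preCFUE and 389, 229.9, 578, 364 and 291 in preMegE. The preCFUE arrays all lay lower, by -1.12 ± 0.31 (adjusted p = 0.0333), and the call was lost without preMegE replicate 1, 3 or 4 or any 1 preCFUE array (-1.20 to -0.95, adjusted p = 0.0618 to 0.133). The mean over probe sets gave -0.47 and passed. In CLP it was 133, 313 and 111, below preGM at 364, 376 and 342. That difference, -1.03 ± 0.34, lay at the threshold (adjusted p = 0.04995) and was lost under 20 of 28 alternatives. Without CLP replicate 1 or 3 it was -0.88 and -0.77 (adjusted p = 0.158 and 0.2), and with CLP replicate 2 left out -1.45 (adjusted p = 0.00305). Quantile normalization gave -0.55 (adjusted p = 0.126), the 3-prime over 5-prime ratio in the model -0.68 (adjusted p = 0.158) and the mean over probe sets -0.12 (adjusted p = 0.38). In a fit of all 34945 named probe sets, the 1 used here did not pass (adjusted p = 0.0613), and a dimmer Kat2b probe set passed in the other direction, at 0.48 (adjusted p = 0.0479). Its paralogue Kat2a was 342, 376 and 291 in MkP and 429.9, 451 and 527 in preCFUE, lower by -0.46 ± 0.14 (adjusted p = 0.0398). Quantile normalization gave -0.06 (adjusted p = 0.88), its probe sets averaged -0.33 (adjusted p = 0.256) and 1 as the constant -0.48 (adjusted p = 0.0646), and leaving out 8 single arrays in turn ended the call as well (adjusted p = 0.0504 to 0.166).

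The 3 methyltransferases were all highest in preCFUE, and all 3 passed as lower in MkP than in preCFUE. The lowest mean was in MkP for Setd8 and Prmt1, but in preMegE for Carm1. Setd8, which places a single methyl group on histone H4 and is needed for chromatin condensation in mitosis, was 529, 485 and 511 in preCFUE and 284, 194 and 214 in MkP. It was 418, 292, 442, 419.9 and 391 in preMegE, 320.0, 420.0 and 220.3 in preGM and 212, 394 and 210.4 in CLP. No array of another fraction reached the preCFUE values. The difference between MkP and preCFUE was -1.10 ± 0.25 (adjusted p = 0.00729), held in all 28 alternatives, with -0.71 under quantile normalization and -0.52 with the mean over probe sets, and a second bright probe set gave -1.04. Against preMegE, MkP missed the threshold (-0.73 ± 0.22, adjusted p = 0.0501), and passed in a fit of only those arrays (adjusted p = 0.02).

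Carm1, an arginine methyltransferase that coactivates transcription, was 518, 637 and 573 in preCFUE and 306, 302, 388, 290.0 and 321 in preMegE. It was 385, 380.2 and 314 in MkP and 251, 309.6 and 446 in preGM, so preCFUE stood above all. Carm1 has 1 probe set, so the mean over probe sets leaves its values unchanged. The difference was 0.81 ± 0.15 for preCFUE against preMegE (adjusted p = 0.00316), which held in all 28 alternatives, and -0.66 ± 0.17 for MkP against preCFUE (adjusted p = 0.0171). The latter was lost under quantile normalization (-0.27, adjusted p = 0.552) and without MkP replicate 3 or preCFUE replicate 2 or 3 (-0.66 to -0.57, adjusted p = 0.0503 to 0.0788). Prmt1, the main arginine methyltransferase of the cell, was 237, 226 and 280.0 in preCFUE and 60.4, 69.7 and 77.3 in MkP. In preGM it was 254, 215 and 63.8 and in CLP 49.9, 162 and 54.4, a wide spread within both fractions. MkP lay below preCFUE by -1.63 ± 0.45 (adjusted p = 0.0239), lost without any 1 MkP array or preCFUE replicate 1 or 3 (-1.70 to -1.54, adjusted p = 0.0519 to 0.0798).

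Among the remodellers, Smarcb1, a core subunit of the SWI/SNF complexes, was the only 1 of 7 past a test in the main fit. It was 240.2, 249 and 279.8 in preCFUE against 171, 185, 220.1, 188 and 194 in preMegE. The difference was 0.39 ± 0.11 with no overlap (adjusted p = 0.0367). The call was lost under 11 of 28 alternatives, among them the removal of preMegE replicate 1, 2, 4 or 5 or any 1 preCFUE array (0.33 to 0.43, adjusted p = 0.0638 to 0.185), quantile normalization (0.30, adjusted p = 0.324), 1 as the constant (adjusted p = 0.0817) and the fit of better expressed genes (0.0635). The Smarcb1 call over the 5 fractions (adjusted p = 0.0379) was lost under 14 of 27 alternatives. The ATPase Smarca4 was 823, 869.9 and 851 in CLP and 304 to 683 in preMegE. Over the 5 fractions it missed the threshold (adjusted p = 0.0532), and it passed under 8 of 27 alternatives. Its alternative Smarca2 was 53.5, 54.6 and 67.2 in preCFUE and 155, 116, 203, 117 and 135 in preMegE. This was lower without overlap by -1.09 ± 0.33, which missed the threshold (adjusted p = 0.0588). It passed in a fit of only the arrays compared (adjusted p = 0.00503), and another Smarca2 probe set passed at -0.86 in the fit of all probe sets. The SWI/SNF subunits Smarcc1 (953 to 2142) and Smarcd2 (1918 to 3724) and the NuRD ATPase Chd4 (179 to 415) did not pass in the main fit. Chd7 lay at 9.47 to 22.7, near the dim end.

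**Figure D4:**
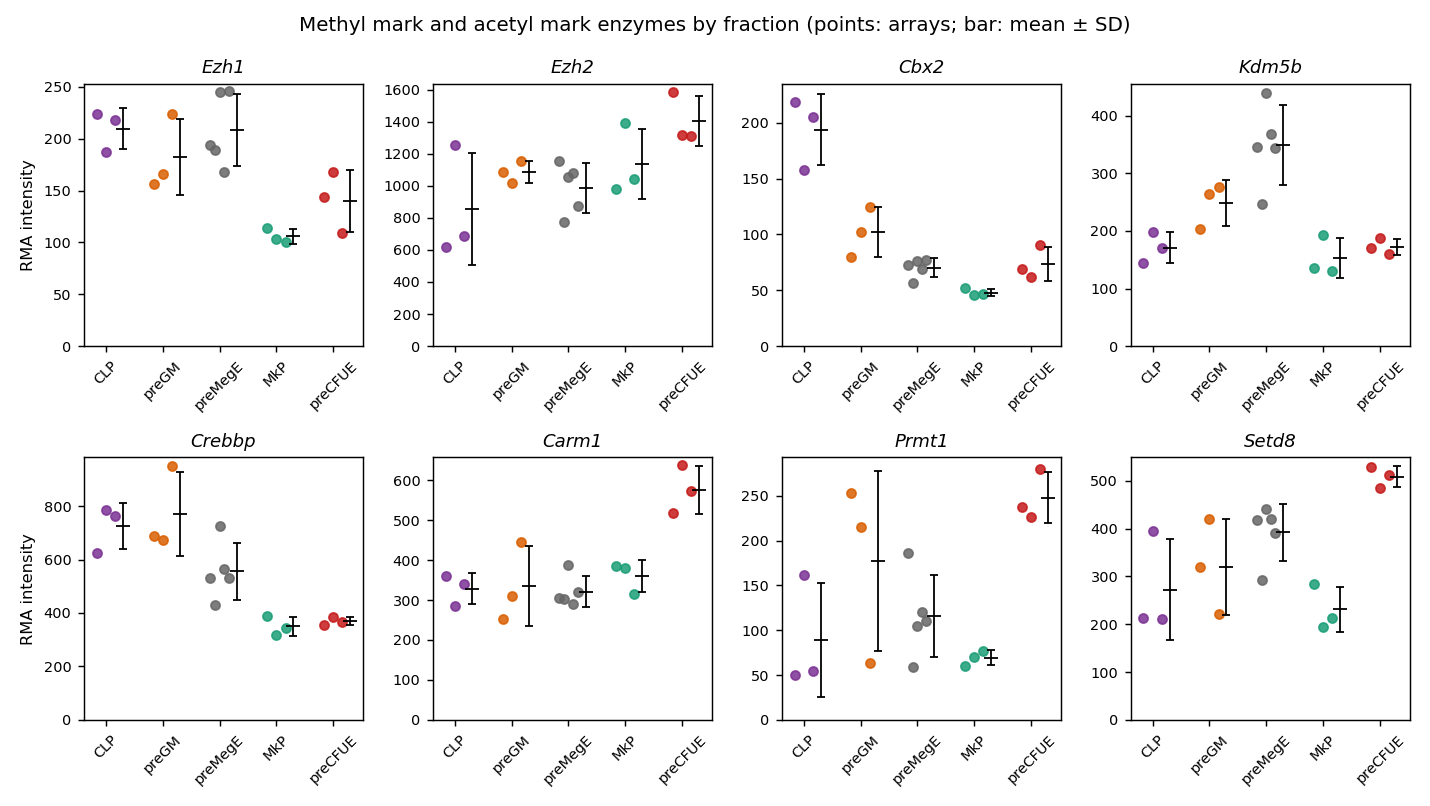
RMA intensity (linear axis from 0) of 8 genes of other roles, 1 point per array, by fraction, with the fraction mean ± SD as a black mark (n = 3, and 5 for preMegE). Ezh2 passed no test in the main fit of all arrays and is shown beside Ezh1. The preMegE arrays stand above both branches for Kdm5b, Crebbp and Ezh1, and the preCFUE arrays stand above all others for Setd8 and Carm1.

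CLP replicate 2 bears on every CLP result. For 28 of the 39 genes it was the highest of the 3 CLP arrays, for 7 the lowest, and its log2 value exceeded the mean of replicates 1 and 3 by a median of 0.31. The 3-prime over 5-prime ratio was 3.00 on this array and 5.12 and 4.08 on replicates 1 and 3. On the preGM arrays it was 2.72, 3.15 and 3.94, all below CLP replicates 1 and 3. The sum of 14 S phase genes was 22322 on CLP replicate 2, against 17319 and 13313 on replicates 1 and 3. The part of either in the CLP values was not tested. With replicates 1 and 3 alone, CLP was lower than preGM for Ezh2 (-0.71 ± 0.17, adjusted p = 0.00773), Rnf2, Hdac2 (-0.83 ± 0.18, adjusted p = 0.00412), Sirt1, Kdm5a (-1.39 ± 0.30, adjusted p = 0.00413), Kdm1a (-0.79 ± 0.20, adjusted p = 0.00874), Eed, Bmi1, Ring1, Hdac5, Kdm5b, Kat2b and Prmt1. Cbx2 and Hdac7 stayed higher (0.96 and 1.16). These 15 of the 39 genes stand against 33.2% of all genes in the same fit.

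A wider list of 110 other chromatin genes (116 were listed) was read in the same fits. Over the 5 fractions 43 of them (39.1%) differed, against 34.9% of all genes. In the fit of better expressed genes the background was 57.7%, with 13.9% for preMegE against preGM and 16.4% for preCFUE against preMegE. The 110 were not counted in that fit, so no excess over genes of like level can be read from the shares here. In preMegE against preGM, 7 were higher and 9 lower (14.5% in all, against 8.69%), among them Hells, a remodeller of lymphoid and dividing cells (-1.49), the methyltransferase Nsd2 (-1.36) and the mitochondrial deacetylase Sirt3 (-1.15). In MkP against preMegE, 1 was higher, the coactivator Ncoa3 (1.47 ± 0.18, adjusted p = 7.86e-05), and 6 were lower (6.36% in all, against 10.3%), among them the histone H4 methyltransferase Kmt5b (-1.002) and the SWI/SNF subunit Arid1a (-0.99). In preCFUE against preMegE, 5 were higher and 9 lower (12.7%, against 8.69%), with the SWI/SNF subunit Phf10 higher (1.19 ± 0.18, adjusted p = 0.000619) and the SWI/SNF subunit Arid1b (-1.32) and Kmt2e (-1.20) lower. In MkP against preCFUE, 6 were higher and 11 lower (15.5%, against 16.2%), with Ncoa3 at 346 ± 14.2 (SD, n = 3) in MkP and 41.7 ± 5.88 (n = 3) in preCFUE, the largest of the differences named (2.65 ± 0.20, limma adjusted p = 4.49e-07). Arid1b was higher (1.69) and Phf10 lower (-1.43) there. In CLP against preGM, 5 were higher and 12 lower (15.5%, against 18.3%), with the NuRD subunit Mta3 higher (1.49) and Hells (-1.19) and the CoREST subunit Rcor1 (-1.18) lower.

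Of these 15 named differences, 9 held in every alternative. The exceptions that a single array decided were Sirt3, lost without any 1 preGM array or preMegE replicate 2 or 5 (adjusted p = 0.0581 to 0.109), Arid1a, lost without MkP replicate 1 or 3 (0.0607 and 0.111), and Kmt5b, lost without MkP replicate 1 (0.0758). Hells (0.0809 to 0.158) and Rcor1 (0.0517 to 0.0748) in CLP were lost without CLP replicate 1 or 3 or preGM replicate 1 or 2. Quantile normalization ended Arid1a (-0.71), Hells in CLP (-0.72) and Rcor1 (-0.70), and the mean over probe sets Arid1a (-0.70) and Kmt5b (-0.32). In CLP, the 3-prime over 5-prime ratio in the model (adjusted p = 0.109 and 0.0691) and a fit of only the arrays compared (0.188 and 0.18) ended Hells and Rcor1. Without a loss of the call, the mean over probe sets moved Hells to -0.98 in preMegE, Kmt2e to -0.56 and Mta3 to 0.87. The remaining exception was Hells in preMegE, lost only with the replicate number in the model. That model also ended Sirt3, Arid1a, and Hells and Rcor1 in CLP.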

How the data were processed

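The authors amplified RNA of sorted cells with a second round of in vitro transcription, hybridised it to Affymetrix arrays and summarised probe sets with RMA, per the labels' protocols and the series' design text, and deposited intensity values on a linear scale. The RMA version is not given in the sources used here. From these, log2(intensity + 16) was taken with no further scaling. Of 45101 probe sets, 34945 name a single gene in the platform annotation, giving 18193 genes. A gene's probe set was the 1 of highest mean log2 value. The rule can also be read as the highest mean intensity, which was run first and gave slightly different counts over all genes. The choice was made after both results were seen, and the other reading chooses a different probe set for 77 genes and 0 members.

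limma 3.58.1 (R 4.3.3) fitted 1 model with a term per fraction to all 17 arrays (12 residual and 2.01 prior degrees of freedom). Calls are Benjamini-Hochberg adjusted p under 0.05 over all 18193 genes. Errors after ± are standard errors unless marked SD. The number of arrays limits the precision. The scripts were tested on simulated data. All 39 members are given, and every member past the test in a comparison, as well as both partners of paralogue pairs, may be named. Of the other chromatin genes, the 3 with the largest change per comparison and no overlap are named. The members and lists were chosen with earlier results of these data known. A description field of the labels that conflicts with the titles was not used, and groups follow the titles. The short names other than preMegE follow general knowledge of the sorting scheme. Alternatives covered scaling, added constant, filters, probe set, weights, covariate, block and single arrays left out. Figures were drawn with matplotlib 3.10.9.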

Additional observations from a re-analysis of the deposited data

Results flagged for a closer look

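In the preMegE fraction, the only one with enough arrays (5) for a test of a single stray value, 3 of the 39 genes had 1 array far from the other 4 relative to their range. Chance gives about 5% of such groups. Hdac9 was 12.9455 on replicate 1 and 6.64 to 7.90 on the others. Chd4 was 336.169 on replicate 1 and 233 to 249 on the others. Chd7 was 18.315 on replicate 2 and 9.47 to 11.3 on the others. Hdac9 and Chd7 lie near the dim end of the array.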

How the results depend on the processing

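Of the 33 calls of a gene in a comparison, 10 held in every alternative: Hdac5, Hdac7 and Hdac9 between preMegE and preGM, Hdac5 and Kdm5b between MkP and preMegE, Carm1 and Kdm5b between preCFUE and preMegE, and Hdac4, Hdac5 and Setd8 between MkP and preCFUE. Hdac5 and Carm1 have 1 probe set each, so the alternatives in the choice of probe set could not change their values. No call changed sign. Leaving out 1 array at a time gave 3 to 5 genes for preMegE against preGM, 6 to 13 for MkP against preMegE, 2 to 8 for preCFUE against preMegE, 5 to 13 for MkP against preCFUE, 2 to 15 for CLP against preGM and 15 to 27 over the 5 fractions. The shares of all genes ran from 6.69% to 9.64%, 6.51% to 13.2%, 5.80% to 10.3%, 9.79% to 19.2%, 7.84% to 33.2% and 29.7% to 42.9%. Array weights gave 10, 18, 11, 15 and 16 genes in the same order of comparisons and 32 over the fractions, and the shares of all genes rose as well, to 20.6%, 19.7%, 16.6%, 26.2%, 35.3% and 53.6%. Quantile normalization gave 5 for preMegE against preGM (1638 of all 18193 genes) and 6 for MkP against preCFUE (13.8%). Adding the Gapdh 3-prime over 5-prime ratio to the model gave 5 for preMegE against preGM and 10 for preCFUE against preMegE (9.95% and 11.9%). A fit of only the arrays compared gave 1 for CLP against preGM (3.06%). The SD over mean filter of the design text left 4 members to test, of which 3 passed for preMegE against preGM (51.4% of all genes left), 2 for MkP against preMegE (42.3%), 1 for preCFUE against preMegE (36.3%), 4 for MkP against preCFUE (54.8%), 2 for CLP against preGM (54.7%) and 4 over the fractions (93.6%). The cause of the other shifts was not tested. The probe set of highest mean intensity, an alternative added after the data were seen, moved none of these counts. No pairing of same-numbered arrays was seen, though these correlations cannot exclude one. Their deviations correlated between -0.54 and 0.51, with 11 of 30 over 0.1. For arrays of different number the range was -0.60 to 0.59, with 32 of 84 over 0.1. Of the 17 arrays, 5 were closest to their own number. With the replicate block, MkP against preMegE gave 4, preCFUE against preMegE 2, MkP against preCFUE 6 and the test over the fractions 11 (5.32%, 4.98%, 11.7% and 25.0% of all genes). The losses named for each member above leave this block out. It ended Crebbp, Hdac4, Hdac9, Kdm3a and Kdm4a for MkP against preMegE. For preCFUE against preMegE it ended Crebbp, Ezh1, Kat2b and Smarcb1. For MkP against preCFUE it ended Kat2a, Kdm4a, Prmt1 and Ring1, and for CLP against preGM Kat2b. Dim probe sets (Hdac9, Cbx7, Cbx8, Chd7) limit what can be seen.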

Other observations

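Of the 39 genes, 29 have more than 1 probe set. In a fit of all 34945 named probe sets, for pairs of a gene and a comparison that passed there with the probe set used, other probe sets of the gene gave the same call 5 times and did not pass 36 times, and many of these are dim. Kat2b for CLP against preGM is not among these pairs, since the probe set used missed the threshold in that fit (adjusted p = 0.0613). Kdm5b was read by a second probe set that passed in all 5 comparisons, at -0.57 for CLP against preGM and 0.58 for preMegE against preGM, where the one used gave -0.50 and 0.45 without passing. A second Kat2b probe set gave 0.59 for MkP against preMegE, where the one used gave -0.74 without passing. A second Smarca2 probe set passed at 1.13 for MkP against preCFUE, where the one used gave 0.94 (adjusted p = 0.111).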
